A study of Mus musculus with 6 samples.

Results

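The genes described here encode Rab GTPases, and they were measured by RNA-seq of poly(A) RNA in mouse bone marrow-derived macrophages. They were chosen by name: every gene whose symbol is Rab, a number and at most a letter and a further digit was taken, and the exchange factors, GTPase-activating proteins and effectors that carry Rab in longer symbols were kept apart. This gave 59 genes of the 55401 in the deposited table. The naming rule uses no measured value.

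Macrophages were grown from marrow of C57BL/6 mice for 7 days in medium with 10% fetal bovine serum and 40 ng/mL of M-CSF, the growth factor that drives macrophage differentiation. There were 3 libraries labelled wild type (WT) and 3 labelled KO, whose genotype is given as Mettl3-/- (KO in what follows means that label). The Mettl3 protein is the methyltransferase that places m6A, a methyl mark on adenosine, in messenger RNA. The labels do not say how the allele was made, whether a Cre line or promoter drove its loss, how old the mice were, or whether the 3 libraries of a group came from separate mice or cultures, so the p-values measure the spread between these libraries, which may be technical. They also mention a treatment after differentiation without naming it, and apply the same growth conditions to both groups.

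The level of Mettl3 itself was not reduced under the KO label. Its level, in fragments per kilobase of transcript scaled to library depth (FPKM), was 2.62, 2.91 and 2.26 in WT replicates 1 to 3 and 2.50, 2.56 and 2.93 in KO replicates 1 to 3, and these ranges overlap. The log2 fold change was 0.02 (SE 0.11, edgeR quasi-likelihood test, Benjamini-Hochberg adjusted p = 0.93), with 95% limits from -0.25 to 0.29. Mettl3 shares part of its locus with Tox4 on the opposite strand, and a total per gene does not show whether a part of the transcript is missing, so the groups are called by their labels throughout. Totals per library ran from 67280390 to 77997742 estimated counts. All 10 macrophage markers passed the filter, of which 4 rose (Csf1r, Mertk, Fcgr1 and Spi1) and 2 fell (Lyz2 and Adgre1) under the KO label. Their summed level was 16634 to 16983 FPKM in WT, against 8674 to 8770 FPKM in KO, where Lyz2 (log2 fold change -1.26) weighs most. Neutrophil markers summed to 60.9 to 66.5 FPKM in WT, against 51.9 to 62.2 FPKM in KO, with 1 of 7 tested higher and 1 lower. T and NK cell markers summed to 8.12 to 8.64 FPKM in WT, against 10.03 to 10.8 FPKM in KO, with none of 8 called. B cell markers summed to 5.89 to 6.26 FPKM in WT, against 6.12 to 6.70 FPKM in KO, and stromal markers to 1.51 to 1.91 and 1.57 to 1.78 FPKM. Mast cell markers summed to 0.606 to 0.808 FPKM in WT, against 0.842 to 0.933 FPKM in KO, with Mcpt4, Fcer1a and Tpsb2 at 0. Dendritic cell markers summed to 0.186 to 0.324 FPKM in WT, against 0.194 to 0.333 FPKM in KO, with Siglech and Cd209a at 0. Only 5 of 6 B cell, 5 of 6 stromal, 1 of 6 mast cell and 3 of 7 dendritic cell markers passed the filter, and of these 1 stromal gene was called. The part of these marker levels in the Rab results was not tested, and in bulk RNA fewer cells of a type and less RNA per cell cannot be told apart.

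Rab GTPases are small membrane-bound switches that mark the compartments of the secretory and endocytic pathways. Each is loaded with GTP by an exchange factor, recruits effectors that tether, move or fuse vesicles, is turned off by a GTPase-activating protein, and is then lifted from the membrane by a GDP dissociation inhibitor. In macrophages they carry newly engulfed particles from early to late phagosomes, return receptors to the surface, and bring secreted proteins and receptors from the Golgi.

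Many Rabs exist as close paralogs, so the stretch of coding sequence that begins at the phosphate-binding P-loop, the nucleotide-binding motif all Rabs share, is shown for the 4 same-number pairs whose called member had the smallest adjusted p, to show how far their sequences differ. The capitals mark the bases that differ from the paralog shown beside it, the sequences are 60 bases long and come from the GENCODE M21 coding transcripts (GRCm38, coding strand), and positions are counted from the A of the start codon. Within these windows Rab7 and Rab7b were 65.0% identical (21 bases differ), Rab1a and Rab1b 75.0% (15), Rab4a and Rab4b 78.3% (13), and Rab8a and Rab8b 86.7% (8).
Rab7, bases 43 to 102: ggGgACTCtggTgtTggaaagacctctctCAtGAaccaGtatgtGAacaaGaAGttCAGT
Rab7b, bases 43 to 102: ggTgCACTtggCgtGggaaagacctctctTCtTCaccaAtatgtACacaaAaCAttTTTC
Rab1a, bases 52 to 111: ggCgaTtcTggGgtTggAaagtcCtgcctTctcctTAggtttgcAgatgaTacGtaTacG
Rab1b, bases 43 to 102: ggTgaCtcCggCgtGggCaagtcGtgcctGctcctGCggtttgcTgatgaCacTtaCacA
Rab4a, bases 58 to 117: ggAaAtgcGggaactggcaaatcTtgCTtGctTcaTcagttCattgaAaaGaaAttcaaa
Rab4b, bases 43 to 102: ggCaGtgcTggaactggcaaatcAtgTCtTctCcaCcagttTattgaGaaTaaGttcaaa
Rab8a, bases 43 to 102: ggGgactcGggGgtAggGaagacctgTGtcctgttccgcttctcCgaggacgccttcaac
Rab8b, bases 43 to 102: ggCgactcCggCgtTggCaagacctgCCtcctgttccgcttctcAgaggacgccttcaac
No 50-base stretch of the transcript examined for Rab7b, Rab1a, Rab1b, Rab35, Rab4a, Rab34, Rab3d or Rab5c occurs in the transcripts of another gene, and for Rab8b 5.66% do. For 36 of the 50 members tested, under 5% of such stretches were shared.

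Of the 59 genes, 50 passed the filter on low counts. Rab3b, Rab3c and Rab9b had a count of 0 in all 6 libraries, which allows up to 3 counts, or 0.0446 CPM (counts scaled to library depth) in the smallest library, for counting error only. Rab17, Rab25, Rab26, Rab27b, Rab30 and Rab40b reached at most 16 counts. By mean FPKM, a level per transcript length, 16 genes stood at 30 or above, 11 between 10 and 30, 14 between 1 and 10 and 18 under 1. This order depends on the lengths behind the deposited FPKM, which were not given. Rab14 had 12047 to 14422 estimated counts but a mean of 12.1 FPKM, while Rab32 had 9613 to 11529 counts and 55.1 FPKM. Their longest coding transcripts have 3081 and 2149 bases, so the deposited FPKM may understate Rab14. The 8 with the highest mean FPKM held 59.6% of the family's summed FPKM. They were Rab7, which drives fusion of late endosomes and phagosomes with lysosomes, the early endosome Rab5c, the plasma membrane transport Rabs Rab8b and Rab10, the ER-to-Golgi Rabs Rab1a and Rab1b, Rab32 of lysosome-related organelles, and Rab31 of traffic between the Golgi and endosomes. The summed FPKM of the family was 1263, 1320 and 1331 in WT (1305 ± 36.5, SD, n = 3) and 1197.5, 1287 and 1267 in the libraries labelled KO (1250.4 ± 46.9, SD, n = 3), and the groups overlap.

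**Figure D1:**
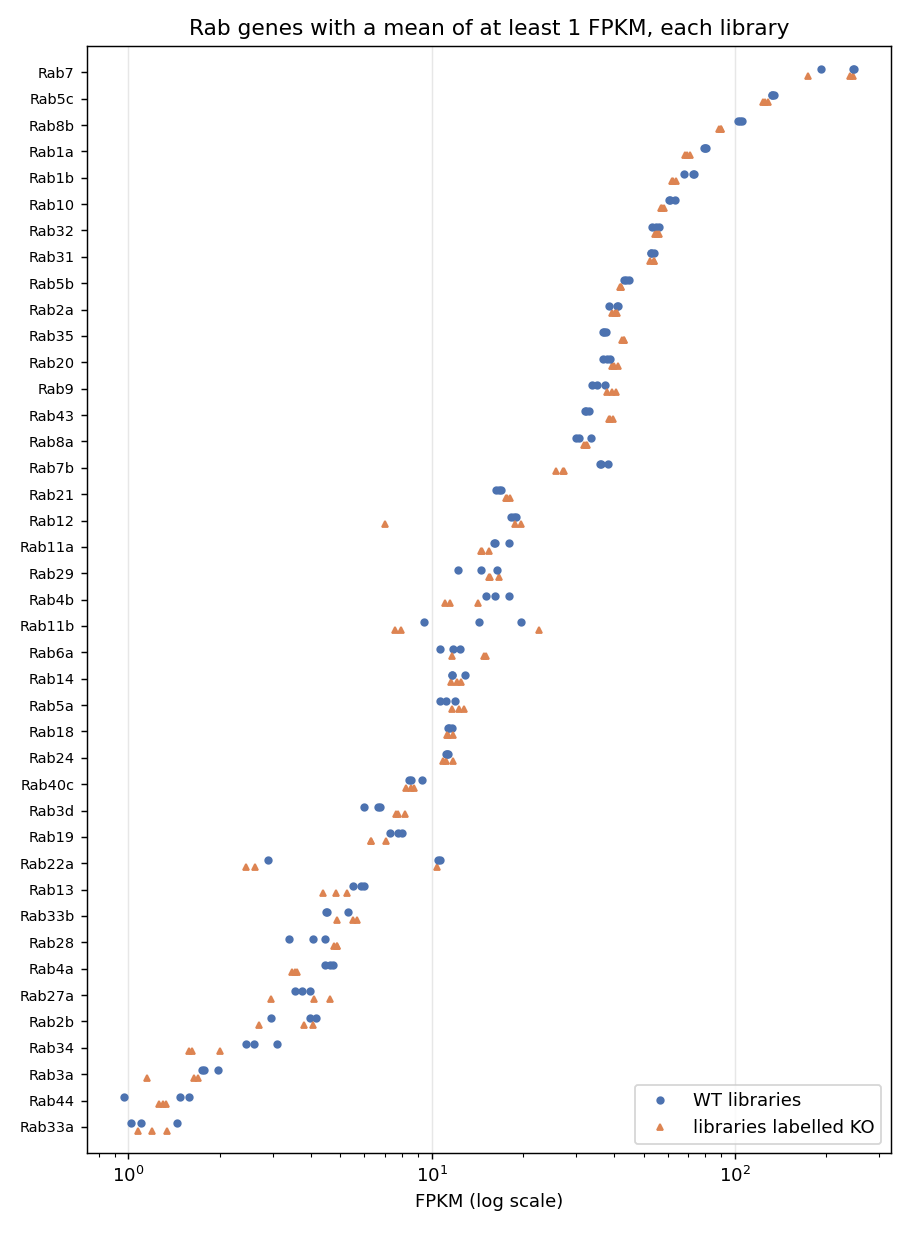
Level of the 41 Rab genes with a mean of at least 1 FPKM, in FPKM on a log axis, with a blue circle for each WT library and an orange triangle for each library labelled KO. Rab7 and Rab5c stand highest, and the points of Rab22a, Rab11b and Rab12 spread widest.

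Between the groups 11 of the 50 tested Rab genes (22.0%) passed an adjusted p of 0.05 by the quasi-likelihood test of edgeR, adjusted over all genes by the Benjamini-Hochberg method, beside 12.7% of the 16256 genes tested. In the libraries labelled KO 3 were higher, Rab43, Rab35 and Rab3d, 6.0% beside a background of 7.01%. The other 8 were lower, Rab7b, Rab8b, Rab1a, Rab4a, Rab1b, Rab34, Rab10 and Rab5c, 16.0% beside 5.67%. Percent changes of single genes are from the edgeR ratio, whose scaling differs slightly from that of the FPKM means. Gene coordinates are those the authors deposited with the values (build mm10). All 11 belong to the 41 genes at 1 FPKM or above. Abundant genes were called more often: above a floor of 5 for the mean log2 CPM, 27.0% of all genes and 9 of 26 Rab genes passed. Log2 fold changes were below 0 for 34 Rab genes and above 0 for 16, with a median of -0.06, against -0.0049 for all tested genes, and the median absolute value was 0.19 against 0.18. Of the 50 tested Rab genes, 8 lay higher and 14 lower without overlap of the groups' FPKM ranges. Over all 16256 tested genes the shares were 19.1% higher and 14.6% lower. DESeq2 passed 14 of the 47 Rab genes it gave an adjusted p, 3 higher and 11 lower, beside 20.3% of all genes. It added Rab4b, Rab11a and Rab36.

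**Figure D2:**
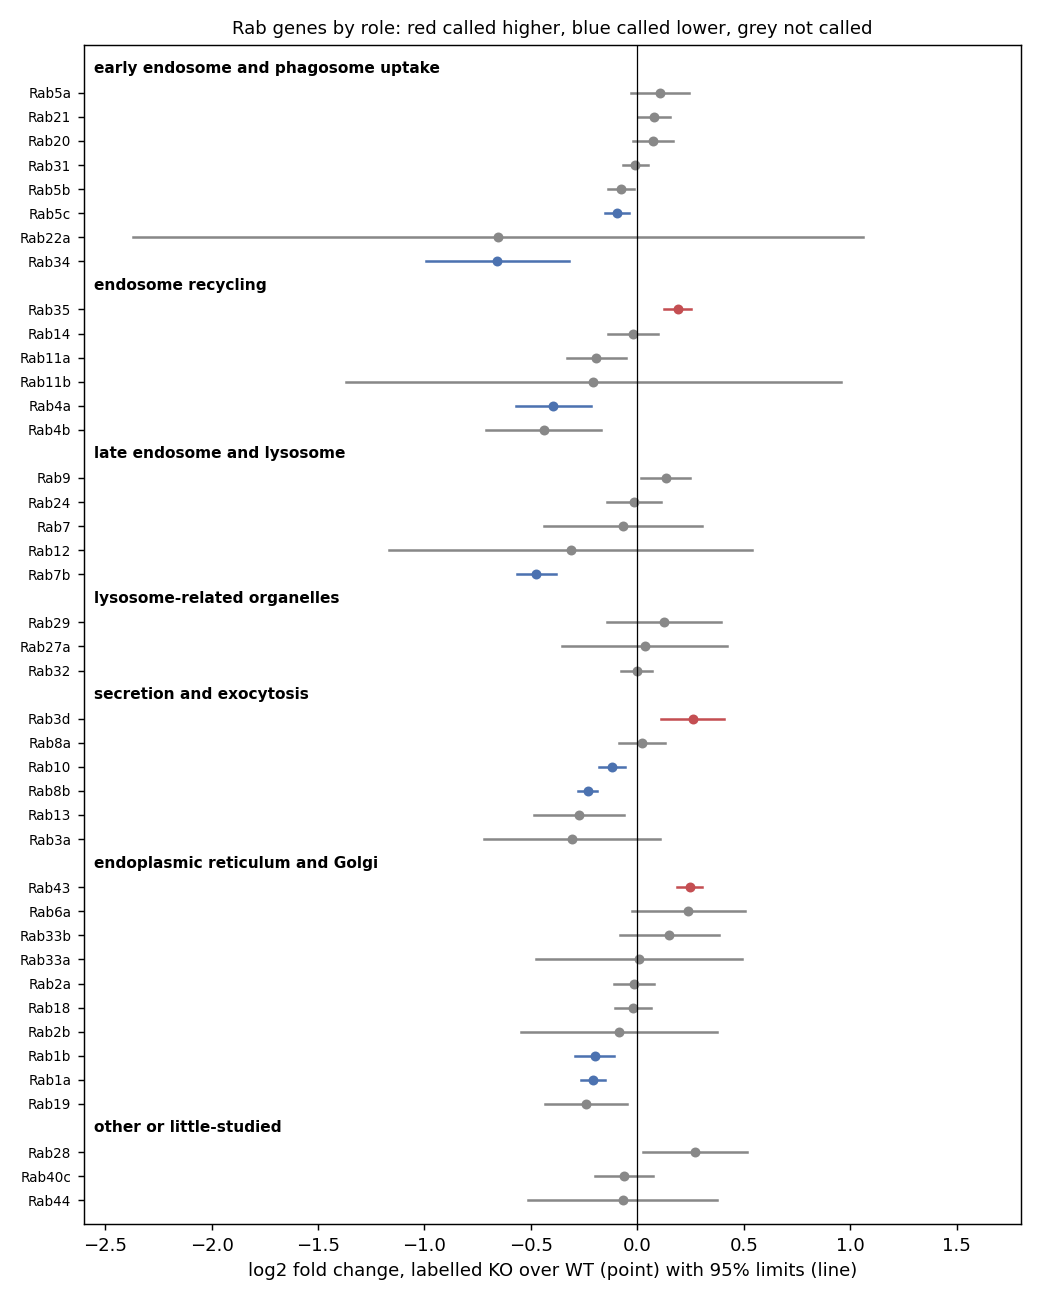
Log2 fold change, labelled KO over WT, with 95% limits, of the 41 tested Rab genes with a mean of at least 1 FPKM, grouped by role. The 3 genes that rose are red, the 8 that fell are blue and the rest grey, and Rab22a has the widest limits of those shown.

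Rabs of the early endosome and of phagosome uptake, where engulfed material first arrives, had 2 of 8 tested genes lower, Rab34 and Rab5c, and none higher, with a median log2 fold change of -0.04. Rab5c (chr11:100715009-100738215, minus strand), which with Rab5a and Rab5b recruits the fusion machinery of the early endosome, stood at 135, 133 and 133 FPKM in WT, against 124, 126 and 129 FPKM in KO. All 3 libraries labelled KO lie below all 3 WT libraries, with means of 133.4 ± 1.18 and 126.3 ± 2.55 (SD, n = 3), so that it fell by 6.44%. Its log2 fold change was -0.10 (SE 0.02, edgeR adjusted p = 0.0441), and without any 1 of the libraries it was no longer called (adjusted p 0.0508 to 0.121).

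Its paralogs were not called. Rab5b stood at 43.0, 43.6 and 44.9 FPKM in WT, against 42.2, 42.0 and 41.9 FPKM in KO (edgeR adjusted p = 0.11), and Rab5a at 10.6, 11.9 and 11.1 FPKM in WT, against 12.3, 12.8 and 11.6 FPKM in KO (adjusted p = 0.292). Rab5b lay lower in each library labelled KO than in any WT library, while Rab5a overlapped. Rab5a made up 5.96% ± 0.340 of the summed Rab5 FPKM in WT, against 6.78% ± 0.358 in KO (SD, n = 3). Those ranges do not overlap, and the 2-sided exact permutation p was 0.1, the smallest that 3 libraries against 3 can give. Over 19 such paralog shares in 9 families the smallest adjusted p was 0.38. In a family of 2 genes the shares mirror each other and have the same p. With a floor of 0.1 no share could pass, so these p-values decide nothing.

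Rab34 (chr11:78188430-78192193, plus strand), a Golgi-associated Rab with roles in macropinosome formation and lysosome positioning, was the member with the largest fall among those called. Its FPKM was 2.60, 2.45 and 3.08 in WT and 1.62, 1.59 and 2.004 in KO. The groups do not overlap, with means of 2.71 ± 0.333 and 1.74 ± 0.232 (SD, n = 3). On the log2 scale the change was -0.66 (SE 0.14, edgeR adjusted p = 0.0284), and the call held only without KO replicate 3, being lost without each of the other libraries (adjusted p 0.0530 to 0.0955). Of the remaining genes of this group Rab31, at 54.2, 53.0 and 52.7 FPKM in WT, against 54.1, 54.0 and 52.6 FPKM in KO, had a ratio with 95% limits of 0.955 to 1.03. Rab20, which acts on macropinosomes and phagosomes, and Rab21, which acts in integrin uptake, lay higher in every KO library than in any WT library, with log2 fold changes of 0.07 and 0.08 that were not called (edgeR adjusted p = 0.289 and 0.173).

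Among Rabs that return cargo from endosomes to the surface, 1 of 7 tested genes was higher and 1 lower. That is 28.6%, beside 12.7% of all genes, and their median log2 fold change was -0.19. Rab35 (chr5:115631908-115647736, plus strand), which controls fast recycling at the plasma membrane and actin there, had 36.8, 37.1 and 37.6 FPKM in WT, against 43.0, 42.6 and 43.2 FPKM in KO. Every KO library was above every WT library, with means of 37.2 ± 0.409 and 42.9 ± 0.313 (SD, n = 3), a rise of 14.1%. The log2 fold change was 0.19 (SE 0.03, edgeR adjusted p = 0.00605), and the call held with any 1 library left out.

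Rab4a (chr8:123805985-123835287, plus strand), of the fast route from early endosomes, fell from 4.61, 4.46 and 4.73 FPKM in WT to 3.61, 3.55 and 3.46 FPKM in KO. The groups do not overlap. Its log2 fold change was -0.40 (SE 0.07, edgeR adjusted p = 0.0175), and the call was lost with WT replicate 1, WT replicate 3 or any KO replicate left out (adjusted p 0.0526 to 0.0654). Rab4b, more abundant, stood at 18.0, 16.2 and 15.1 FPKM in WT, against 11.1, 14.2 and 11.5 FPKM in KO, again with every KO library lower. Its log2 fold change of -0.44 (SE 0.11) was as large as that of Rab4a but missed the threshold (edgeR adjusted p = 0.0524). It passed without KO replicate 2 (adjusted p = 0.0228) and by DESeq2 (adjusted p = 0.00258). In the Rab4b transcript 80.3% of the 50-base stretches are shared with other genes, most often with Gm21983, a gene model with 0 to 3 counts.

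Rab11a, the Rab of the slow recycling compartment, was lower in each KO library without being called (log2 fold change -0.19, edgeR adjusted p = 0.0869, DESeq2 adjusted p = 0.0368). Its paralog Rab11b varied between libraries of both groups and is described with the other genes that stepped between libraries.

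Late endosome and lysosome Rabs had 1 of 5 tested genes lower and none higher, with a median log2 fold change of -0.07. That gene, Rab7b (chr1:131688695-131715439, plus strand), had the smallest adjusted p of the family. Its protein acts in transport from endosomes to the trans-Golgi network and is known in macrophages for steering Toll-like receptors towards degradation. Rab7b stood at 36.2, 36.0 and 38.1 FPKM in WT, against 25.8, 27.4 and 27.2 FPKM in KO. The lowest WT library lay well above the highest KO library, with means of 36.8 ± 1.17 and 26.8 ± 0.870 (SD, n = 3), so that it fell by 28.0%. On the log2 scale the change was -0.47 (SE 0.04, edgeR adjusted p = 0.000689), and the call held with any 1 library left out.

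Rab7, the late endosomal Rab that shares its number, was the most abundant member and was not called. It had 192, 247 and 246 FPKM in WT, against 175, 245 and 241 FPKM in KO, so that replicate 1 of each group was low and the groups overlapped. Its log2 fold change was -0.07 (edgeR adjusted p = 0.833). In the Rab7 transcript 16.2% of 50-base stretches are shared with other genes, most often with Rab7-ps1, a pseudogene. The Rab7b share of the summed Rab7 and Rab7b FPKM was 14.0% ± 1.64 in WT and 11.0% ± 1.60 in KO (SD, n = 3, 2-sided exact permutation p = 0.2, where 3 libraries against 3 cannot go below 0.1), and the ranges overlap. Rab9, of the return route from late endosomes to the Golgi, lay higher in each KO library but was not called (log2 fold change 0.13, edgeR adjusted p = 0.138).

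None of the 4 tested Rabs of lysosome-related organelles was called. Rab32, at 54.9, 56.1 and 53.4 FPKM in WT, against 54.5, 55.3 and 56.2 FPKM in KO, had a ratio with 95% limits of 0.948 to 1.05. Its low-level relative Rab38 stood at 0.309, 0.618 and 0.682 FPKM in WT, against 0.825, 0.839 and 0.697 FPKM in KO. The Rab38 ranges do not overlap, but the log2 fold change of 0.54 was not called (SE 0.32, edgeR adjusted p = 0.353).

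**Figure D3:**
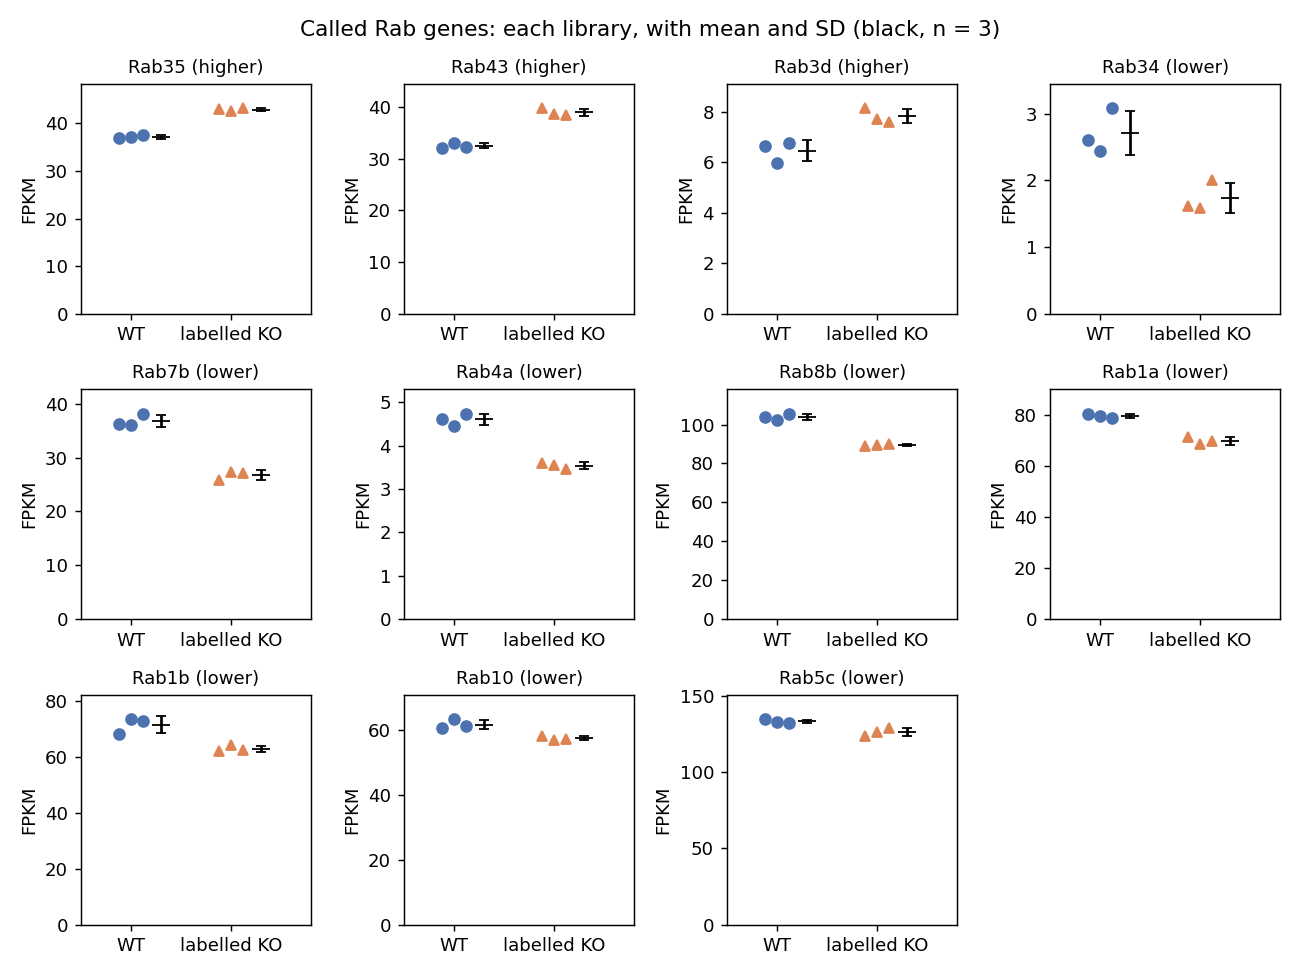
FPKM of the 11 called Rab genes in each library, with the group mean and SD (n = 3) in black and axes from 0. In each panel the WT and labelled KO points do not overlap.

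Secretion and exocytosis Rabs had 1 gene higher and 2 lower among 7 tested (42.9%, beside 12.7% of all genes). Their median log2 fold change was -0.12. Rab8b (chr9:66843664-66919687, minus strand), which acts in transport from the Golgi and recycling endosomes to the plasma membrane, stood at 104, 102 and 106 FPKM in WT, against 88.9, 89.7 and 89.8 FPKM in KO. Every KO library lies below every WT library, with means of 103.9 ± 1.68 and 89.5 ± 0.535 (SD, n = 3), so that it fell by 14.9%. The log2 fold change was -0.23 (SE 0.02, edgeR adjusted p = 0.000731), and the call held with any 1 library left out.

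Rab8a, which differs from Rab8b at 8 bases of the window shown above, was not called. Its FPKM was 33.5, 29.9 and 30.7 in WT and 32.4, 32.4 and 31.9 in KO, which overlap (log2 fold change 0.02, edgeR adjusted p = 0.821). Rab8b made up 76.8% ± 1.01 of the summed Rab8 FPKM in WT, against 73.5% ± 0.259 in KO (SD, n = 3), without overlap (2-sided exact permutation p = 0.1, the smallest possible).

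Rab10 (chr12:3247428-3309969, minus strand), which carries cargo such as Toll-like receptor 4 and glucose transporters to the surface, fell by 7.94%. It stood at 60.8, 63.4 and 61.3 FPKM in WT, against 58.3, 57.1 and 57.3 FPKM in KO, without overlap. On the log2 scale the change was -0.12 (SE 0.03, edgeR adjusted p = 0.0306), and the call was lost without any 1 of the libraries (adjusted p 0.0531 to 0.0889). Rab10os, on the opposite strand, overlaps the span of the Rab10 gene, introns included, over 2949 bases and had 1177 to 1616 counts. In the Rab10 transcript 2.54% of 50-base stretches are shared with other genes on either strand, most often with Rab10os. Without a stated use of strand, reads from those shared stretches cannot be told apart.

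Rab3d (chr9:21907491-21918192, minus strand), a Rab of secretory granules, rose from 6.64, 5.99 and 6.77 FPKM in WT to 8.15, 7.72 and 7.63 FPKM in KO. The groups do not overlap, with means of 6.47 ± 0.417 and 7.83 ± 0.281 (SD, n = 3). The log2 fold change was 0.26 (SE 0.06, edgeR adjusted p = 0.0422), and it was lost without any 1 of the libraries (adjusted p 0.0646 to 0.125). Rab3a had 1.75, 1.97 and 1.78 FPKM in WT, against 1.15, 1.70 and 1.65 FPKM in KO and was not called (log2 fold change -0.31, adjusted p = 0.321). Rab3d held 77.8% ± 2.28 of their summed FPKM in WT, against 83.9% ± 3.19 in KO (SD, n = 3), without overlap (2-sided exact permutation p = 0.1). Rab13, a Rab of transport to cell junctions, lay lower in each KO library but was not called (log2 fold change -0.27, edgeR adjusted p = 0.104).

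Of the 14 tested Rabs of the endoplasmic reticulum and Golgi, 1 was higher and 2 lower (21.4%, beside 12.7% of all genes). Their median log2 fold change was -0.06. The lower pair were Rab1a and Rab1b, the paralogs that direct traffic from the endoplasmic reticulum to the Golgi. Rab1a (chr11:20201432-20226856, plus strand) had 80.4, 79.7 and 79.0 FPKM in WT, against 71.2, 68.4 and 69.6 FPKM in KO, so that it fell by 13.5%. Its log2 fold change was -0.21 (SE 0.02, edgeR adjusted p = 0.00245), and the call held with any 1 library left out.

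Rab1b (chr19:5099205-5107072, minus strand) had 68.1, 73.5 and 73.0 FPKM in WT, against 62.1, 64.2 and 62.7 FPKM in KO, so that it fell by 13.0%. Both paralogs were lower in every KO library than in any WT library. The log2 fold change of Rab1b was -0.20 (SE 0.04, edgeR adjusted p = 0.0185), and the call was lost when WT replicate 2, WT replicate 3, KO replicate 1 or KO replicate 3 was left out (adjusted p 0.0617 to 0.0684). The Rab1a share of their summed FPKM was 52.7% in WT and 52.6% in KO (2-sided exact permutation p = 0.8).

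Rab43 (chr6:87788853-87812098, minus strand), a Golgi-associated Rab also linked to phagosomes and antigen cross-presentation, rose by 18.5%. It had 32.2, 33.1 and 32.3 FPKM in WT, against 39.8, 38.8 and 38.4 FPKM in KO, with every KO library above every WT library. On the log2 scale the change was 0.25 (SE 0.03, edgeR adjusted p = 0.00199), and the call held with any 1 library left out. In the Rab43 transcript 90.4% of the 50-base stretches are shared with other genes, most often with the gene model Gm45140, which had 25 to 249 counts beside 13459 to 18634 for Rab43. Gm44423 (176 to 297 counts) and 9930120I10Rik (17 to 69 counts) also overlap Rab43 on its strand, so the value of Rab43 depends on how the authors' counting split these reads.

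Rab36, a Golgi Rab at low level, stood at 0.320, 0.185 and 0.320 FPKM in WT, against 0.188, 0.127 and 0.145 FPKM in KO. The groups overlap slightly, and the log2 fold change of -0.86 (SE 0.28) was not called by edgeR (adjusted p = 0.104), while DESeq2 gave an adjusted p of 0.0495. Rab19, a Golgi Rab, lay lower in each KO library without being called (log2 fold change -0.24, edgeR adjusted p = 0.11). Rab2b, on chromosome 14, lies 15295 bases from Mettl3. It had 2.95, 4.15 and 3.97 FPKM in WT, against 2.70, 3.79 and 4.06 FPKM in KO, which overlap (log2 fold change -0.09, edgeR adjusted p = 0.832). The remaining 5 tested Rabs, of other or little-studied roles, were not called, Rab28 having the largest shift without overlap (log2 fold change 0.27, edgeR adjusted p = 0.152).

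A few Rab genes stepped between libraries of the same group by more than the groups differed. Among the 34 members with a mean of at least 1000 counts, 3 varied more than 2-fold within a group, Rab22a, Rab11b and Rab12, beside 278 of 7607 such genes in all (3.65%), and the median spread was 1.10-fold against 1.11-fold. Rab22a, of early and recycling endosomes, had 10.7, 2.90 and 10.5 FPKM in WT, against 2.45, 10.4 and 2.62 FPKM in KO. WT replicate 2 and KO replicates 1 and 3 form a low level, and the other 3 libraries a high level, with nothing between. Its log2 fold change of -0.65 has a standard error of 0.71 (edgeR adjusted p = 0.633).

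Rab11b stood at 9.42, 14.4 and 19.7 FPKM in WT, against 7.58, 22.6 and 7.93 FPKM in KO, and 14.0% of its 50-base stretches are shared with other genes, most often with the pseudogene Rab11b-ps2. Rab12, which sends receptors from recycling endosomes to lysosomes, had 19.0, 18.2 and 18.8 FPKM in WT, against 19.7, 7.04 and 18.8 FPKM in KO. Only KO replicate 2 is low for Rab12, whereas the same library is among the high ones for Rab22a and Rab11b. Rab11b and Rab12 are named because of their spread, which was seen in these values, and the source of the steps was not tested.

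**Figure D4:**
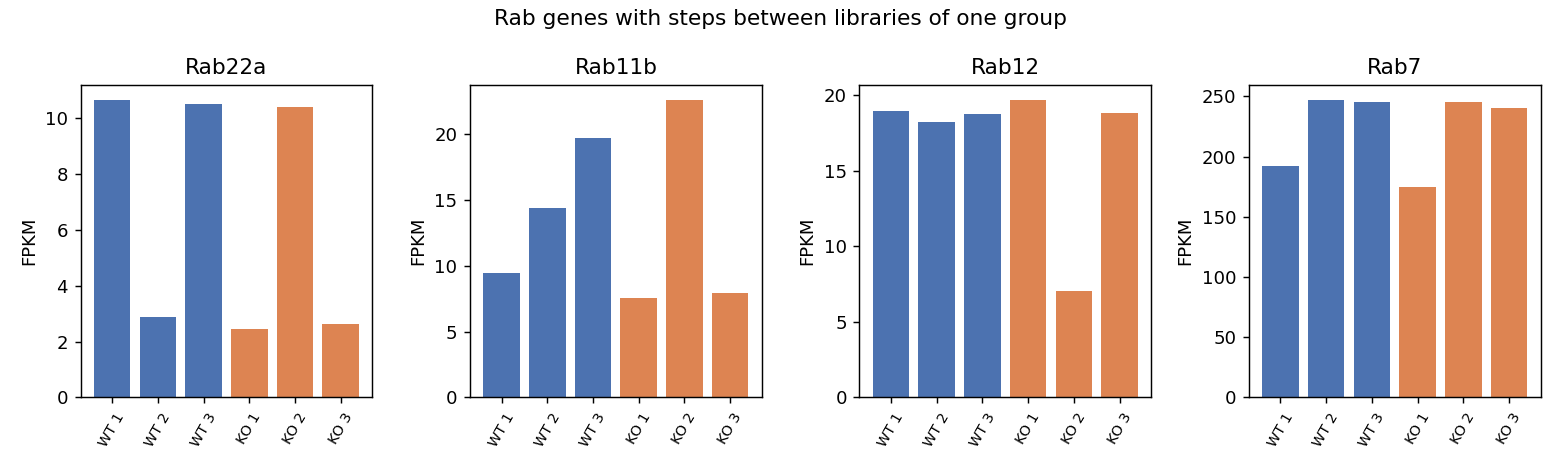
FPKM of Rab22a, Rab11b, Rab12 and Rab7 in each of the 6 libraries, with bars from 0 in blue for WT and orange for labelled KO. The low libraries differ from gene to gene: 3 for Rab22a, KO replicate 2 for Rab12, and replicate 1 of both groups for Rab7.

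The genes that load, unload and read Rabs were taken from a list of 122 names, of which 121 were found under separate symbols and 117 tested. By edgeR 11 rose and 11 fell under the KO label (18.8%, beside 12.7% of all genes), with a median log2 fold change of -0.01. Among the 8 genes of prenylation and membrane extraction 1 was higher and 3 lower. Gdi2, a GDP dissociation inhibitor that lifts inactive Rabs from membranes, fell from a mean of 28.6 to 25.3 FPKM (log2 fold change -0.19, edgeR adjusted p = 0.0151). Rabac1, which releases Rabs from such inhibitors, fell from 27.5 to 24.5 FPKM (adjusted p = 0.0393). Rabif, a chaperone of nucleotide-free Rabs, rose from 9.37 to 11.5 FPKM (log2 fold change 0.27, adjusted p = 0.0118). The Rabif call held with any 1 library left out. That of Gdi2 was lost without WT replicate 2 or 3, and that of Rabac1 without any 1 library.

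Of 39 tested exchange factors and their partners, 4 were higher and 4 lower (20.5%, beside 12.7% of all genes). This sublist also holds Rab3gap1 and Rab3gap2, the subunits of the Rab3 GTPase-activating complex. Rab3il1, an exchange factor of Rab8 and Rab3, had 43.2, 43.4 and 42.1 FPKM in WT, against 33.1, 31.7 and 33.5 FPKM in KO (log2 fold change -0.41, edgeR adjusted p = 0.000466). C9orf72, which forms a complex with Smcr8 and Wdr41, had 11.9, 11.7 and 11.3 FPKM in WT, against 8.66, 8.36 and 8.44 FPKM in KO (log2 fold change -0.48, adjusted p = 0.000817). The values of neither gene overlapped between the groups. The C9orf72 partners Smcr8 and Wdr41 were not called (log2 fold changes -0.07 and -0.09, edgeR adjusted p = 0.22 and 0.181).

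Rab3gap2, the non-catalytic subunit of the Rab3 GTPase-activating complex that also activates Rab18, fell (log2 fold change -0.27, edgeR adjusted p = 0.00234), while the catalytic subunit Rab3gap1 was not called (0.03). Dennd4c, an exchange factor of Rab10, fell from 28.8 to 26.3 FPKM (log2 fold change -0.15, adjusted p = 0.0379). Dennd1a, an exchange factor of Rab35, rose from 10.1 to 11.5 FPKM (0.17, adjusted p = 0.0161). Ankrd27 (0.21), which acts on Rab21 and binds Rab32 and Rab38, Mon1b (0.27), of the complex that loads Rab7, and Dennd5a (0.14) rose as well. Of these 8 genes, Rab3il1, C9orf72 and Rab3gap2 kept their calls with any 1 library left out, Dennd4c and Ankrd27 lost theirs without any 1 library, Mon1b and Dennd5a without any library except KO replicate 2, and Dennd1a with WT replicate 2, WT replicate 3, KO replicate 1 or KO replicate 3 left out.

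Of 30 tested genes in the sublist of GTPase-activating proteins 3 were called, all higher (10.0%, beside 12.7% of all genes in either direction and 7.01% higher). Rab3gap2 and C9orf72, which fell, and Rab3gap1, Smcr8 and Wdr41 were counted with the exchange factors and are not among the 30. Log2 fold changes of the 30 were above 0 for 14 and below 0 for 16, with a median of -0.01. Tbc1d10b, whose protein acts on Rab35, rose from 20.2, 20.6 and 20.4 FPKM in WT to 25.0, 25.1 and 25.3 FPKM in KO (log2 fold change 0.28, edgeR adjusted p = 0.00144), a call that held with any 1 library left out. Evi5 (0.20) and Tbc1d9b (0.14) rose but lost their calls without any 1 library. Of 40 tested effectors 3 were higher and 4 lower. Rab11fip5, an effector of Rab11, rose from 26.3 to 31.0 FPKM (log2 fold change 0.22, adjusted p = 0.0038), and Ehbp1l1, an effector of Rab8, rose as well (0.17, adjusted p = 0.0082).

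Inpp5b, a phosphoinositide phosphatase recruited by Rabs, rose too (log2 fold change 0.21, edgeR adjusted p = 0.0357). The effectors that fell were Appl2 of Rab5 (-0.28), Rilpl2 of Rab8 and Rab10 (-0.24), Vps39 of the tethering complex bound by Rab7 (-0.23), and Plekhm1 of Rab7 (-0.15, from 47.3 to 43.0 FPKM). Calls of Rab11fip5, Ehbp1l1, Appl2, Rilpl2 and Vps39 held with any 1 library left out. That of Plekhm1 was lost with WT replicate 2, WT replicate 3 or KO replicate 3 left out, and that of Inpp5b without any library except KO replicate 2.

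**Figure D5:**
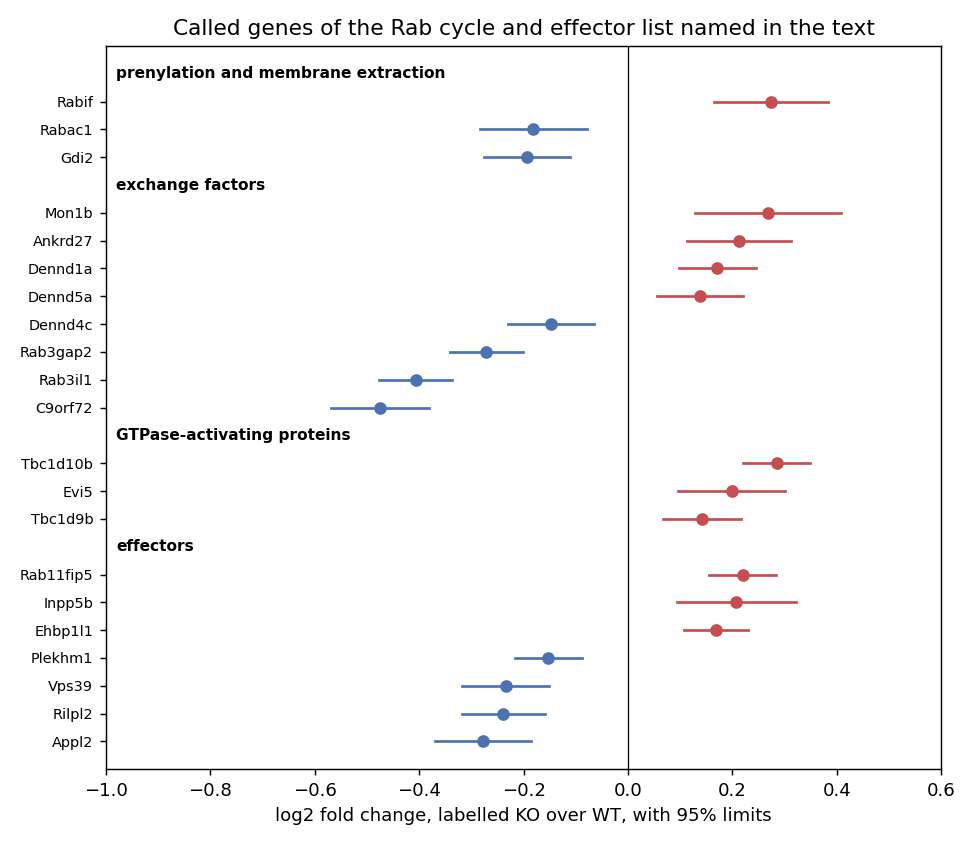
Log2 fold change, labelled KO over WT, with 95% limits, of the called genes of the Rab cycle and effector list that the text names, by sublist, in red for those that rose and blue for those that fell. The largest fall shown is that of C9orf72 and the largest rise that of Tbc1d10b.

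Sequence features that the choice of genes did not use were counted next. GGACT is a common form of the sequence that the Mettl3 enzyme methylates, searched here on the sense strand of the longest coding transcript of each gene in GENCODE M21. The median density was 0.904 per kilobase in the 50 tested Rab genes, 46 of which hold at least 1, against 1.05 in 12545 tested genes with a coding transcript. In the 3 Rab genes that rose it was 1.52 (1.42 to 1.54), in the 8 that fell 0.719 (0 to 2.11) and in the 39 not called 0.882, while over all genes it was 1.14 in those that rose and 1.01 in those that fell. Rab7b holds 8 such words in 4498 bases, and Rab1a and Rab1b hold none. These are word counts, not measured methylation.

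RefSeq promoters (GRCm38.p6, 250 bases before to 50 after the start) were found for 48 Rab genes, among them 9 of the 11 called, with none for Rab7b or Rab4a. GGGCGG, the GC box bound by Sp-family factors, was searched on both strands together with CACGTG, the E-box of lysosomal-gene regulators of the MiT family, GAGGAAGT, a form of the site of the macrophage factor PU.1, and a form of the interferon-response site, GAAA repeated after any 2 bases. None of these words contains another. For each Rab gene the 1 promoter nearest its annotated start was used. The background was every listed promoter, with no choice of 1 per gene and no filter on expression, so the percentages are of unlike sets. GGGCGG was in 34 of 48 Rab promoters (70.8%) and 8 of the 9 called, against 35.7% of all 32851 promoters, and CACGTG in 5 (10.4%, against 7.15%). None of the called genes' promoters had CACGTG. GAGGAAGT was in 2 (4.17%, against 3.2%) and the interferon-response word in 1 (2.08%, against 3.44%). The promoters of a gene that fell and a gene that rose, each called with any 1 library left out, are shown with their GC boxes in capitals, read along the gene's strand. Both hold the word more than once, 2 times in Rab8b and 3 times in Rab43, and their GC contents are 65.3% and 57.7%.
Rab8b, chr9:66919656-66919955, minus strand: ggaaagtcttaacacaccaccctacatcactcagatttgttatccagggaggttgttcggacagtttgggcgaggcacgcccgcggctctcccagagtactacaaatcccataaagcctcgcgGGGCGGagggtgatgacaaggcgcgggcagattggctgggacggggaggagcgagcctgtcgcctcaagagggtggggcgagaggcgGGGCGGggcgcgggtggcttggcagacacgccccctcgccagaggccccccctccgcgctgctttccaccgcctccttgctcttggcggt
Rab43, chr6:87812049-87812348, minus strand: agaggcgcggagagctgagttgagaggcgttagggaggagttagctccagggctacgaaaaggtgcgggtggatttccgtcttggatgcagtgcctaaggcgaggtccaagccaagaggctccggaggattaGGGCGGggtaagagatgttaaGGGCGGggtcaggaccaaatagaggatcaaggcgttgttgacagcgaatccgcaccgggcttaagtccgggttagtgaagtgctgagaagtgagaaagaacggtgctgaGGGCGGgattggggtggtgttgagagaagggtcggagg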

How the data were processed

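RNA-seq was done on 3 libraries labelled WT and 3 labelled KO. Per the submitters' processing notes, the tools were cutadapt 1.9, HISAT2 2.0.4 and StringTie 1.3.4d with build mm10. Settings, annotation and use of strand were not given in the sources used here. An estimated count and an FPKM value for each of 55401 genes and each library were deposited by the authors. Where the count is 0 the deposited FPKM is 0.0001, called 0 in the text.

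Estimated counts were rounded to whole numbers. Genes passing edgeR 4.0.16's filterByExpr (minimum count 10, minimum total 15) were tested with TMM scaling and the quasi-likelihood test in R 4.3.3, with Benjamini-Hochberg adjustment over all 16256 genes and a threshold of 0.05. Counts were also simulated from the gene means and totals of these libraries, with the same fixed dispersion for every gene. Of 200 genes above a minimum level that were changed 2-fold, 100% were recovered. That does not measure recovery for genes as variable as Rab22a or for genes at low level. FPKM values describe levels. Limits are 95%. Totals of 67280390 to 77997742 counts set the precision, and floors cover counting error only.

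Members were chosen by symbol. Every library's value is given for called members, the 8 with the highest mean FPKM, uncalled members with a log2 fold change of at least 0.5 in size, and paralogs of called members at 1 FPKM or more. Of the Rab cycle list, up to 4 called genes per sublist and direction are named. A called gene of that list is counted but not reported here. The naming rule uses no measured value, but the Rab family and the lists were chosen for description with earlier results of these data known. Alternatives were DESeq2 1.42.0, other scalings, no filter, limma 3.58.1 on log2(FPKM + 0.1) and log2(FPKM + 1), a replicate block, and leaving out each library.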

Additional observations from a re-analysis of the deposited data

How the results depend on the processing

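All 11 called Rab genes kept their direction under the 13 alternatives run, and Rab7b, Rab8b, Rab43, Rab1a and Rab35 were called under each. Rab genes called lower numbered 8, and 5 with the replicate block. Leaving out each library gave 3 to 5. The count of all tested genes called, 2060, became 1012 with the block and 1244 to 1339 with a library left out. Of the Rab cycle and effector list, 11 genes were called higher, against 17 by DESeq2, 7 without a filter, 3 with the block and 4 to 9 with a library left out. The 11 called lower became 6 with the block and 6 to 10 with a library left out. The fits without a library or with the block have fewer degrees of freedom. Same-numbered libraries did not deviate together (correlations -0.02, -0.01 and 0.02), and WT replicates 1 and 2 correlated best with KO replicates 2 and 1, so the numbers were not taken to pair samples. The detection of changes under 2-fold was not tested on simulated data.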
